A study of Mus musculus with 12 samples.

Results

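Wild type liver was compared between mice of 6 and 12 weeks of age. The 6 arrays are those whose titles name wild type liver at 6 weeks (3 arrays) or at 12 weeks (3 arrays), of 12 arrays in the whole series. Both groups were untreated BALB/c mice carrying no engineered allele, per the labels, and differed in age alone as labelled. RNA was taken from whole liver, so every cell type of the organ contributed. The other 6 arrays were livers of interleukin-18 knockout mice on the same strain, untreated, 3 at 6 weeks and 3 at 12 weeks, and serve here only as a second, separate age series. The labels call the arrays of a group biological replicates. They give neither the sex of the mice nor the time of day or feeding state at killing, and what part of Il18 was deleted is not stated in them.

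Mouse liver matures between weaning and adulthood. Many of its genes become sex-biased at puberty: pulses of growth hormone in males drive one set, while the steadier hormone pattern of females maintains another, through the transcription factor STAT5b and repressors such as BCL6 and CUX2. The liver also runs a circadian clock in which ARNTL (BMAL1) and CLOCK activate the Per, Cry and Rev-erb genes, whose products in turn repress it, so that core clock genes and the output genes they drive peak at different times of day.

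Each level below is the log2 of the processed signal minus that array's 75th percentile, so 0 marks the 75th percentile of an array. Each difference is the 12-week mean minus the 6-week mean of 3 arrays, in log2 units, with its standard error from a limma model over all 12 arrays. A gene passed when its adjusted p (Benjamini-Hochberg over 22125 genes) was under 0.05. The detection mark is the scanner software's call that a spot is well above background. "Rose" and "fell" are used only of genes that passed. Values per array are given in the order of replicates 1, 2 and 3. Counts with 1 array left out are given in the order of replicates 1, 2 and 3 of 6 weeks and then 1, 2 and 3 of 12 weeks.

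Hepatocyte genes dominated all 6 arrays. Albumin (Alb) lay at 10.62, 10.68 and 10.58 at 6 weeks and 10.61, 10.39 and 10.46 at 12 weeks, and all 25 measured hepatocyte identity genes were well above background on each of the 6. Il18 itself lay at 2.44, 2.41 and 2.35 at 6 weeks and 2.25, 2.15 and 2.49 at 12 weeks, a difference of -0.10 ± 0.11 that did not pass (adjusted p = 0.618). Each array's 75th percentile lay between 387 and 420 scanner units. Well above background were 55.6%, 50.1% and 52.9% of spots at 6 weeks and 56.8%, 57.7% and 56.3% at 12 weeks. The lowest such signal was 19.5, 27.4 and 21.8 scanner units at 6 weeks and 17.9, 16.4 and 14.5 at 12 weeks. The mark was thus harder to meet at 6 weeks. Per the array files, all 3 arrays of 6 weeks and replicate 1 of 12 weeks lay on slide 1, while replicates 2 and 3 of 12 weeks lay on slide 2 with all knockout arrays. On the first principal component of the 12 arrays (32.7% of the variance), the 6-week arrays lay at -51.2 to -48.7, and the 12-week arrays at -7.82, 16 and 6.12. Replicate 1, on slide 1, was thus the 12-week array nearest to the 6-week group. With the slide as a fixed block, the age difference is replicate 1 of 12 weeks minus the mean of the 6-week arrays. That value is given below as the same-slide difference.

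Between 6 and 12 weeks, 1023 genes rose (4.62% of 22125) and 982 fell (4.44%), together 9.06%. The groups of 3 arrays did not overlap for 2001 of these 2005 genes, against 26.0% of all genes. A change of at least 2-fold was met by 328 of the genes that rose (1.48% of all) and 177 of those that fell (0.8%), together 2.28%. Over all genes the median difference was -0.02. With the slide as a fixed block, 343 genes rose (1.55%) and 385 fell (1.74%). Treated as a random effect, the slide left 524 that rose (2.37%) and 558 that fell (2.52%). Without replicate 1 of 12 weeks, 1546 rose (6.99%) and 2267 fell (10.2%). Leaving out replicate 1, 2 or 3 of 6 weeks gave 626, 553 and 552 that rose and 504, 515 and 480 that fell, and leaving out replicate 2 of 12 weeks gave 513 and 473. Every one of the 2005 genes had the same sign in each of these fits.

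**Figure D1:**
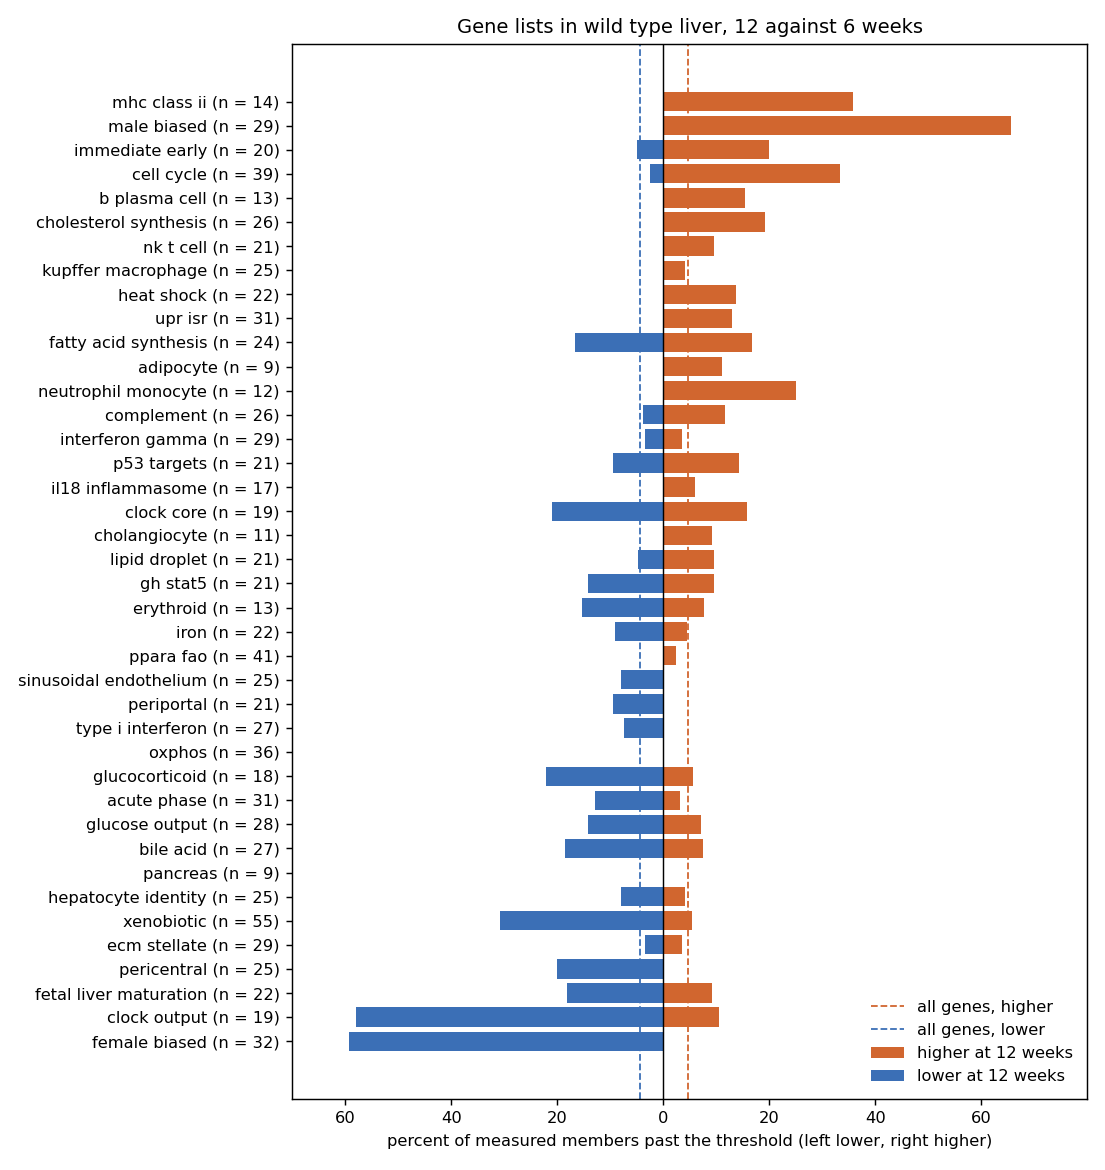
Share of the measured members of 40 gene lists that passed the threshold, in percent, for wild type liver at 12 against 6 weeks; bars to the right are members higher at 12 weeks, bars to the left members lower, and dashed lines mark the shares over all 22125 genes (4.62% and 4.44%). Lists are ordered by their median difference, and n is the number of measured members. The lists were chosen with earlier results of these data known. The longest bar to the right is the male-biased list, and the longest to the left are the female-biased and clock output lists.

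Male-biased liver genes were the clearest group to rise. Of 33 genes listed, 29 were measured. Of these, 19 rose (65.5%, against 4.62% of all genes), none fell (against 4.44%) and 10 did not pass. Their median difference was 0.63, against -0.02 over all genes. The same-slide difference had 14 that rose and none that fell, with a median of 0.74, and without replicate 1 of 12 weeks 17 rose. The count that rose was between 13 and 17 on leaving out any 1 array. Elovl3, an elongase of very long-chain fatty acids with male-biased expression in mouse liver (probe at chr19:46209762-46209821 on mm9), lay at 0.30, 1.67 and 0.72 at 6 weeks and 5.79, 5.88 and 5.14 at 12 weeks. All 12-week arrays were above all 6-week arrays by more than 3 log2 units. The difference of 4.70 ± 0.34 is 26.1-fold (adjusted p = 8.34e-05), and 4.89 on the same slide.

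Enzymes and secreted proteins of the male pattern rose alongside it. Cyp7b1, the oxysterol 7-alpha-hydroxylase, lay at 3.59, 3.68 and 3.49 at 6 weeks and 7.23, 6.84 and 6.38 at 12 weeks, a 9.37-fold rise (3.23 ± 0.21, adjusted p = 3.55e-05). C6, a component of the membrane attack complex, lay at 1.11, 0.83 and 0.83 at 6 weeks and 4.87, 4.85 and 4.39 at 12 weeks, a 13.7-fold rise (3.78 ± 0.16, adjusted p = 3.59e-06). For both, the gap between the ages was wider than the spread within either age. Cyp4a12a, an arachidonic acid hydroxylase, lay at 4.30, 3.23 and 3.78 at 6 weeks and 6.58, 6.47 and 6.25 at 12 weeks (2.66 ± 0.22, adjusted p = 1.44e-04). Its near-identical neighbour Cyp4a12b lay at 4.86, 3.89 and 4.40 at 6 weeks and 7.03, 7.01 and 6.95 at 12 weeks; whether either probe also reads the other gene was not tested. Hsd3b5, a 3-ketosteroid reductase, rose from 5.18, 5.31 and 4.87 to 7.25, 7.34 and 6.72 (1.99 ± 0.22, adjusted p = 8.14e-04).

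Further male-biased members rose by smaller or less even steps. Nat8f5, an N-acetyltransferase-like gene, lay at 0.64, -0.55 and -1.05 at 6 weeks and 3.84, 3.38 and 3.00 at 12 weeks (3.72 ± 0.36, adjusted p = 4.07e-04). Susd4, a sushi-domain regulator of complement, lay at 1.86, 1.59 and 1.86 at 6 weeks and 3.66, 4.52 and 4.60 at 12 weeks (2.49 ± 0.27, adjusted p = 6.68e-04). Cspg5 lay at -1.81, -1.94 and -2.54 at 6 weeks and 0.29, 0.42 and -0.23 at 12 weeks (2.26 ± 0.23, adjusted p = 4.58e-04). None of these 3 genes had overlapping groups, and each held its call on leaving out any 1 array. Serpina12 (vaspin), a secreted serpin, was not well above background on any 6-week array and lay at -1.71, -1.37 and -3.61 at 12 weeks, at least 3.90-fold higher (adjusted p = 0.00697). Scara5, a scavenger receptor for ferritin, was likewise below that mark at 6 weeks and lay at -1.76, 0.36 and -3.27 at 12 weeks, at least 6.11-fold higher (adjusted p = 0.0170). For Scara5 the 12-week arrays spread over more than 3 log2 units, a second probe gave 0.27 without passing, and the call was lost with the slide as a block (3.49) and without replicate 2 or 3 of 6 weeks (differences of 2.73 to 4.55 over all left-out arrays).

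Gstp1, a glutathione transferase, rose from 7.85, 7.33 and 6.91 to 8.72, 8.83 and 8.43 (1.29 ± 0.20, adjusted p = 0.00533). Slco1a1, an organic anion uptake carrier, rose from 3.73, 3.95 and 3.77 to 4.55, 4.40 and 4.38 (0.63 ± 0.11, adjusted p = 0.00893). C8a, another membrane attack complex gene, rose from 6.00, 5.93 and 5.92 to 6.50, 6.58 and 6.35 (0.53 ± 0.075, adjusted p = 0.00323). The groups did not overlap for any of these 3 genes, and each held its call on the same slide. The probe of Gstp2, whose sequence is nearly that of Gstp1, gave 0.15 and did not pass (adjusted p = 0.492), while a second Gstp2 probe gave 1.45 and passed. Bcl6, which represses female-biased genes, lay at 2.40, 2.99 and 1.59 at 6 weeks and 4.76, 4.18 and 4.38 at 12 weeks (2.11 ± 0.50, adjusted p = 0.0288). Its groups did not overlap, but its call was lost on the same slide (2.43, adjusted p = 0.109) and without replicate 1 or 3 of 6 weeks or replicate 2 or 3 of 12 weeks (differences of 1.74 to 2.44). Cyp2d9 (0.48), Mup20 (0.43), Ugt2b1 (0.47) and Ugt2b38 (0.27) also passed, each by less than 1.5-fold and each losing its call in 1 or more fits that left out an array.

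The 10 male-biased genes that did not pass were Gstp2 and 9 others, some of them among the brightest of the list. Mup1, a major urinary protein gene of a family with near-identical copies, lay at 10.54, 10.52 and 10.45 at 6 weeks and 10.68, 10.48 and 10.38 at 12 weeks (0.0081 ± 0.10, adjusted p = 0.971), and Mup3 at 0.15. Cyp2c70, a bile acid hydroxylase, differed by -0.32 ± 0.13 (adjusted p = 0.137), Egfr by 0.38 ± 0.28, Cyp2u1 by 0.19, Nudt7 by 0.035, Serpina1e by -0.023 and C8b by 0.35. Moxd1, a monooxygenase-like gene, was far higher on replicate 2 of 12 weeks than elsewhere: it was well above background on 0 of 3 arrays at 6 weeks and 2 of 3 at 12 weeks, where it lay at -3.42, 2.52 and -5.88, and it did not pass (adjusted p = 0.189).

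Female-biased liver genes moved the other way, some of them steeply. Of 39 genes listed, 34 had a probe and 32 were measured. Of these, 19 fell (59.4%, against 4.44% of all genes), none rose (against 4.62%) and 13 did not pass. Their median difference was -1.67. The same-slide difference had 13 that fell and none that rose, with a median of -1.80; without replicate 1 of 12 weeks 16 fell and 1 rose, and the count of falls was 13 to 23 over all left-out arrays.

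Cyp2b9 and Cyp2b13, neighbouring cytochrome P450 genes that are female-predominant in adult mice, fell together. Their promoters are shown because the genes moved alike and their sequences are nearly the same: over the 250 bases before the start, the RefSeq sequences (GRCm38.p6) share 248 bases (99.2%). The 100-base stretch that opens at position -220 from the start holds both differing bases, printed in capitals, at chr7:26173189-26173288 for Cyp2b9 and chr7:26061275-26061374 for Cyp2b13, both on the plus strand.
Cyp2b9: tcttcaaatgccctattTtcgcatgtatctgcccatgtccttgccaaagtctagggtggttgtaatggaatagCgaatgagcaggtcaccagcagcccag
Cyp2b13: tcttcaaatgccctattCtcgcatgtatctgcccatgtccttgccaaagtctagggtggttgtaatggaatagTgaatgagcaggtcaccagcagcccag

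Cyp2b13 lay at 2.08, 2.33 and 3.84 at 6 weeks and -5.43, -4.40 and -3.43 at 12 weeks, a fall of 144-fold as measured (-7.17 ± 0.67, adjusted p = 3.27e-04). Cyp2b9 lay at 1.25, 1.49 and 2.14 at 6 weeks and -3.71, -4.75 and -2.09 at 12 weeks (-5.14 ± 0.61, adjusted p = 0.00129). Both were well above background on every 6-week array and on 2 of 3 arrays at 12 weeks, and whether the probes also read each other's transcripts was not tested. Cyp2b10, the third member and a target of the nuclear receptor CAR, lay at 5.37, 5.64 and 6.24 at 6 weeks and 1.34, 1.14 and 3.65 at 12 weeks (-3.70 ± 0.60, adjusted p = 0.00626). Replicate 3 of 12 weeks was the highest 12-week array for Cyp2b10, Cyp2b9 and Cyp2b13, and it still lay below all 6-week arrays for each.

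Female-biased transporters and conjugating enzymes fell to or near the background. Hao2, a peroxisomal hydroxyacid oxidase, lay at -1.14, -0.95 and -0.15 at 6 weeks and stayed below the detection mark on every 12-week array, at least 3.87 lower on the log2 scale (adjusted p = 3.55e-05). Sult3a1, a sulfotransferase, was also below that mark at 12 weeks and at least 3.73-fold lower (adjusted p = 0.00393). For both genes the 6-week arrays were all above the 12-week arrays. The organic anion transporter genes Slc22a26, Slc22a27 and Slc22a29, which lie side by side and resemble one another, had differences of -5.19, -4.77 and -4.69 (adjusted p = 0.00206, 0.00232 and 0.00786). Slc22a26, for example, lay at 0.38, -0.71 and 1.5 at 6 weeks and -5.88, -5.05 and -3.46 at 12 weeks. Each of the 3 was well above background on 1 of 3 arrays at 12 weeks, replicate 3 being the highest for all of them.

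Other female-biased members fell less steeply. Akr1b7, an aldo-keto reductase, lay at -0.78, -0.62 and -0.42 at 6 weeks and -3.11, -3.01 and -2.54 at 12 weeks (-2.28 ± 0.17, adjusted p = 8.34e-05). Fmo2 lay at 2.23, 0.71 and 1.41 at 6 weeks and -0.96, -0.80 and -0.10 at 12 weeks (-2.07 ± 0.38, adjusted p = 0.00999). Tox, a transcription factor gene, lay at 0.44, 0.12 and 0.48 at 6 weeks and -2.07, -2.22 and -0.76 at 12 weeks (-2.03 ± 0.34, adjusted p = 0.00664). All 3 kept their calls on the same slide and on leaving out any 1 array. Cyp2a4, a steroid 15-alpha-hydroxylase, was bright at both ages, at 9.38, 9.06 and 9.04 at 6 weeks and 7.34, 7.71 and 8.5 at 12 weeks (-1.31 ± 0.26, adjusted p = 0.0139), and lost its call without replicate 2 of 12 weeks (differences of -1.64 to -1.06 over the left-out arrays). Cyp2c39, an epoxygenase, fell by 0.90 (adjusted p = 0.00411) and lost its call on the same slide (-0.71). Sult1e1, the estrogen sulfotransferase, was not well above background on any 12-week array and at least 3.14-fold lower (adjusted p = 0.0215). Sult1e1, Cyp3a44 (-2.01), Atp6v0d2 (-2.35), Trim24 (-0.94) and Abcd2 (-1.48) all lost their calls on the same slide and in some fits with 1 array left out.

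Among the 13 female-biased genes that did not pass, several were nearly level between ages. Cyp3a16 differed by 0.019 ± 0.21 and Cyp3a41b by 0.19 ± 0.11, Cyp17a1 by -0.27 ± 0.16 and Gas6 by 0.37 ± 0.15. Acyl-CoA thioesterase and omega-hydroxylase genes were split by replicate 3 of 12 weeks. Acot3 lay at 3.12, 1.81 and 1.85 at 6 weeks and -0.74, -0.94 and 2.0 at 12 weeks (-2.16 ± 0.75, adjusted p = 0.105), and Cyp4a14 at 8.07, 8.31 and 8.76 at 6 weeks and 6.56, 6.81 and 8.42 at 12 weeks (-1.12 ± 0.50, adjusted p = 0.192). In both, 12-week replicates 1 and 2 lay below all 6-week arrays and replicate 3 lay among them. Cux2, a repressor that marks the female pattern, lay at -1.23, -3.77 and -3.27 at 6 weeks and -3.98, -3.54 and -3.71 at 12 weeks and did not pass (adjusted p = 0.277).

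Sex-chromosome genes gave a measured check of the mice themselves. Ddx3y lay at 2.19, 2.07 and 2.33 at 6 weeks and 2.37, 2.48 and 2.51 at 12 weeks and Eif2s3y at 3.37, 3.29 and 3.37 at 6 weeks and 3.35, 3.31 and 3.57 at 12 weeks, both on the Y chromosome, and both were well above background on 12 of 12 arrays of the series. The 2 probes of Xist, the noncoding RNA of the inactive X chromosome, were well above background on 0 of 12 arrays, as was that of Kdm5d, another Y-linked gene. The 6-week livers with high female-biased and low male-biased genes thus carried Y-linked transcripts at levels that overlapped or nearly met those of the 12-week livers. None of the 7 measured sex-chromosome genes passed between the ages, with differences from -0.23 to 0.26.

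**Figure D2:**
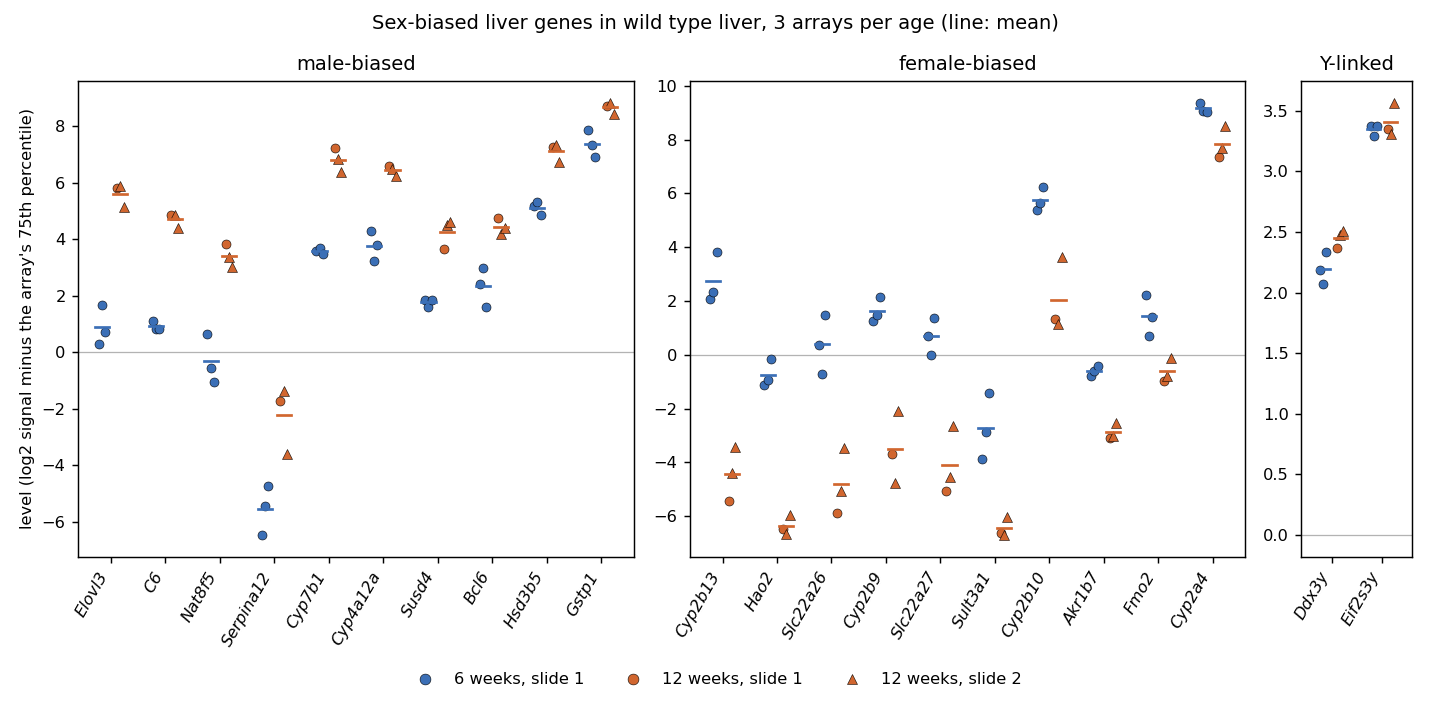
Levels of 10 male-biased, 10 female-biased and 2 Y-linked genes on each wild type array, as log2 signal minus the array's 75th percentile; points are arrays, circles slide 1 and triangles slide 2, and lines are the means of 3 arrays. The 12-week arrays lie above the 6-week arrays for every male-biased gene drawn and below them for every female-biased gene drawn, also for the 12-week array on slide 1, while Eif2s3y overlaps between ages.

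Most genes of the growth hormone pathway itself did not pass, though the share that passed was above that of all genes. Of 21 measured, 2 rose (9.52%, against 4.62% of all genes), 3 fell (14.3%, against 4.44%) and 16 did not pass. The median difference was 0.016. Over the 6 fits that leave out 1 array, 0, 1, 0, 2, 2 and 1 rose and 1, 2, 1, 2, 1 and 1 fell; Igfbp3 alone held its call throughout, and none held on the same slide. Ghr, the growth hormone receptor, lay at 6.04, 5.97 and 6.06 at 6 weeks and 6.07, 6.19 and 6.21 at 12 weeks (0.13 ± 0.069, adjusted p = 0.257). Igf1, its main secreted target, lay at 6.92, 7.15 and 7.16 at 6 weeks and 7.01, 6.94 and 6.86 at 12 weeks (-0.14 ± 0.089, adjusted p = 0.350), while 1 of its 4 other probes passed and those ran from -0.35 to 0.046. Stat5b, the transducer, lay at 3.18, 3.45 and 3.25 at 6 weeks and 3.56, 3.52 and 3.84 at 12 weeks (0.34 ± 0.11, adjusted p = 0.0775), above the 6-week range in all 3 arrays without passing. Socs2, a feedback inhibitor, overlapped between ages (0.26 ± 0.37). The members that moved were Bcl6 and Stat3 (0.51) upward and Igfbp3 (-0.75), Igfbp4 (-0.41) and the prolactin receptor Prlr (-0.74) downward. Ghr, Igf1, Stat5b, Socs2 and Prlr were named after their values were seen.

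Circadian clock genes differed between the ages in opposite directions by role. In the core loop, 3 of 19 measured genes rose (15.8%, against 4.62% of all genes), Arntl and Clock among them. Another 4 fell (21.1%, against 4.44%), among them Per2, Per3 and Ciart, and 12 did not pass. The median difference of the core list was 0.049, since rises and falls offset. All 7 calls held on leaving out any 1 array, and 6 held on the same slide, those of Arntl, Clock, Per2, Per3 and Ciart among them. Among activators, Arntl (probe at chr7:120457261-120457320 on mm9) lay at -3.45, -2.53 and -3.07 at 6 weeks and 0.53, 0.24 and -0.53 at 12 weeks, an 8.56-fold rise (3.1 ± 0.38, adjusted p = 0.00141). Its partner Clock lay at -0.60, -0.19 and -0.21 at 6 weeks and 0.71, 0.83 and 0.81 at 12 weeks (1.12 ± 0.12, adjusted p = 8.14e-04). Every 12-week array was above every 6-week array for both. Npas2, which can stand in for CLOCK, stayed below the detection mark on all 6 wild type arrays.

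Ciart, Per2 and Per3, repressors of the loop, fell. Ciart (CHRONO), a repressor of ARNTL and CLOCK (probe at chr3:95682433-95682492 on mm9), lay at -0.033, -0.14 and 0.22 at 6 weeks and -5.55, -4.78 and -3.03 at 12 weeks, 22.2-fold lower as measured (-4.47 ± 0.48, adjusted p = 6.68e-04), and was well above background on 1 of 3 arrays at 12 weeks. Per2 lay at -0.099, -0.89 and -0.44 at 6 weeks and -2.63, -2.46 and -2.31 at 12 weeks (-1.99 ± 0.26, adjusted p = 0.00225), and Per3 at -1.70, -2.30 and -2.17 at 6 weeks and -4.51, -4.31 and -3.69 at 12 weeks (-2.11 ± 0.33, adjusted p = 0.00518). For all 3 genes the 6-week arrays were uniformly higher. Per1 lay at 3.44, 3.20 and 3.99 at 6 weeks and 2.29, 3.07 and 2.57 at 12 weeks, with no overlap, and did not pass (adjusted p = 0.120). Cry1 (-0.062), Cry2 (-0.013), Nr1d1 (0.19), Nr1d2 (-0.23), Bhlhe40 (-0.12) and Bhlhe41 (0.46) did not pass either. Rora, a nuclear receptor that activates Arntl, differed by 0.45 without passing.

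Promoter sequences of 3 clock-list genes that fell are shown because they carry the E-box or D-box letters through which ARNTL-CLOCK and the PAR bZIP factors are known to act. They come from RefSeq (GRCm38.p6), 5′ to 3′ on each gene's own strand, with the motif letters in capitals: the E-box CACGTG, which reads the same on both strands, in Ciart (chr3:95882259-95882358, minus strand) and Tef (chr15:81802503-81802602, plus strand), and the D-box TTATGTAA, searched on both strands, in Per3 (chr4:151044786-151044885, minus strand).
Ciart: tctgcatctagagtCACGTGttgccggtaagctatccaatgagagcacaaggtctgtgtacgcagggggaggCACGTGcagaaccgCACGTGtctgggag
Tef: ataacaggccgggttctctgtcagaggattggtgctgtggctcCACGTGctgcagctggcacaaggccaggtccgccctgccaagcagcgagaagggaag
Per3: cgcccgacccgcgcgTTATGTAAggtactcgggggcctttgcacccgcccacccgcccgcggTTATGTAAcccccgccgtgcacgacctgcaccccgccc
In windows of 300 bases (250 before and 50 after the start), the E-box letters occurred in 10 of 43 promoters of 31 matched genes of both clock lists (23.3%), against 7.15% of all 32851 promoters and 9.31% of the 14690 promoters of tested genes. The D-box letters occurred in 2 of 43 (4.65%), against 0.938% of all and 0.708% of those of tested genes. The 2 motifs do not overlap in letters. Ciart had the E-box letters at positions -116, -58 and -44 from the start. Of the 9 genes with E-box letters, Ciart, Coq10b, Tef and Tspan4 fell, and Bhlhe41, Cry1, Lonrf3, Per1 and Ppp1r3c did not pass.

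Output genes of the clock fell for the most part. Of 19 measured, 2 rose (10.5%, against 4.62% of all genes), 11 fell (57.9%, against 4.44%) and 6 did not pass. The median difference was -0.86. On the same slide 6 fell and none rose (median -1.05). On omitting single arrays, 5, 9, 7, 9, 6 and 10 fell. Usp2, a deubiquitinase with a strong daily rhythm in liver, lay at 3.44, 2.94 and 3.23 at 6 weeks and -0.60, 0.21 and 0.84 at 12 weeks (-3.06 ± 0.29, adjusted p = 3.60e-04). Wee1, a kinase that delays mitosis, lay at 1.71, 1.23 and 1.40 at 6 weeks and -1.13, -0.85 and 0.23 at 12 weeks (-2.03 ± 0.34, adjusted p = 0.00673). Dbp, a PAR bZIP activator, lay at 7.04, 6.91 and 6.82 at 6 weeks and 4.92, 5.56 and 6.21 at 12 weeks (-1.36 ± 0.26, adjusted p = 0.0112). In all 3, replicate 1 of 12 weeks was lowest and replicate 3 highest, and none of the groups overlapped.

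The other PAR bZIP genes had smaller falls and their repressor rose. Tef lay at 6.67, 6.32 and 6.39 at 6 weeks and 5.19, 5.57 and 5.97 at 12 weeks (-0.88 ± 0.19, adjusted p = 0.0188) and lost its call without replicate 1 of 6 weeks or replicate 2 of 12 weeks (differences of -1.08 to -0.69). Hlf fell by 0.48 (adjusted p = 0.0216) and lost its call on the same slide (-0.59). Nfil3, a repressor that competes for D-boxes, lay at 2.16, 2.12 and 1.89 at 6 weeks and 2.66, 3.02 and 2.67 at 12 weeks (0.73 ± 0.13, adjusted p = 0.0101), higher on all 12-week arrays. Rgs16, a regulator of G-protein signalling, fell from 4.96, 5.52 and 4.24 to 1.72, 2.19 and 2.88 (-2.64 ± 0.58, adjusted p = 0.0218). Nampt, the rate-limiting enzyme of NAD salvage, fell by 0.86. The falls of Noct, a deadenylase-family gene (-1.27), Coq10b (-1.15), Inmt (-0.86) and Tspan4 (-0.70) and the rise of Leo1 (0.83) complete the calls of the list. Calls of Rgs16, Nampt and Noct were lost on the same slide (-3.19, -1.05 and -1.67) and in some fits with 1 array left out, and those of Nfil3, Leo1 and Inmt on the same slide (0.60, 0.85 and -0.98). Alas1, the first enzyme of heme synthesis, was lower on all 12-week arrays (8.58, 8.90 and 9.42 against 6.91, 6.80 and 7.79) and did not pass (adjusted p = 0.0930), while a second Alas1 probe passed at -1.67. The labels give no time of day for any group, so age and time of killing cannot be told apart here.

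**Figure D3:**
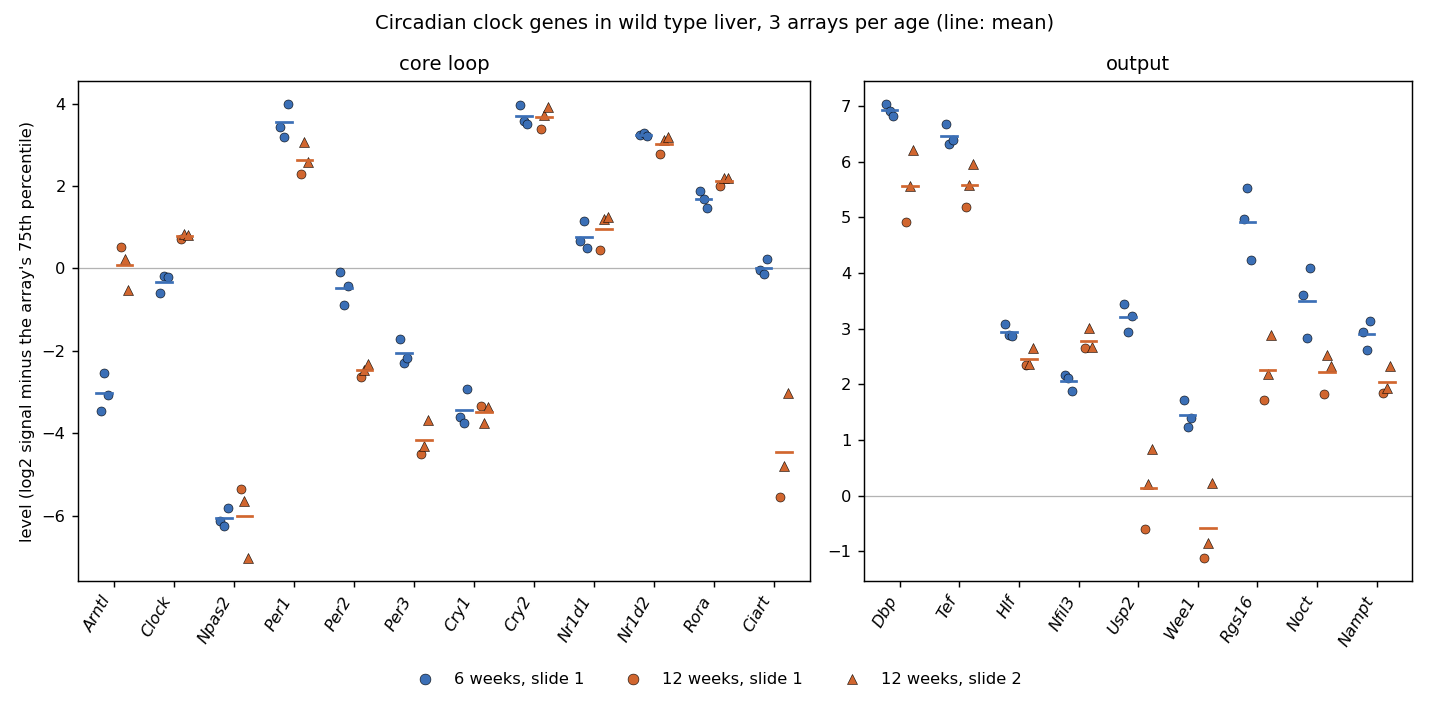
Levels of 12 core clock genes and 9 output genes on each wild type array, as log2 signal minus the array's 75th percentile; points are arrays, circles slide 1 and triangles slide 2, and lines are the means of 3 arrays. Arntl and Clock are higher and Per2, Per3, Ciart, Usp2, Wee1 and Rgs16 lower on all 12-week arrays, whereas Cry1, Cry2 and Nr1d1 overlap between ages.

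Drug-metabolising genes fell more often than they rose. Of 55 measured xenobiotic genes, 17 fell (30.9%, against 4.44% of all genes), 3 rose (5.45%, against 4.62%) and 35 did not pass. The median difference was -0.13. On the same slide 10 fell and 3 rose, and with 1 array left out 14, 16, 13, 17, 14 and 22 fell and 4, 2, 2, 6, 3 and 3 rose. The list shares Cyp2b9, Cyp2b10, Cyp2b13, Cyp2c39 and Akr1b7 with the female-biased list. Nr1i3, the receptor CAR, lay at 4.52, 4.32 and 4.56 at 6 weeks and 3.45, 3.57 and 4.06 at 12 weeks (-0.78 ± 0.15, adjusted p = 0.0140), and lost its call without replicate 3 of 6 weeks or replicate 2 of 12 weeks (differences of -0.96 to -0.65). Fmo1 lay at 4.55, 4.32 and 4.55 at 6 weeks and 3.37, 3.51 and 3.65 at 12 weeks (-0.96 ± 0.093, adjusted p = 3.71e-04), and was lower on every 12-week array. The quinone reductase Nqo1 fell by 1.10 (adjusted p = 0.00624). The efflux pump gene Abcb1a fell by 1.33 (adjusted p = 0.00932), and the glutathione transferase Gstt3 fell by 1.24 (adjusted p = 0.0111). Cyp2c55 was the member that rose most, from 0.57, 0.57 and 0.54 to 2.15, 2.06 and 2.95 (1.82 ± 0.23, adjusted p = 0.00172). Nr1i3, Nqo1, Abcb1a, Gstt3 and Cyp2c55 were named after their values were seen.

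Bile acid genes included a fall of the rate-limiting enzyme. Of 27 measured, 2 rose (7.41%, against 4.62% of all genes) and 5 fell (18.5%, against 4.44%), with a median difference of -0.095. Those that rose were Cyp7b1 and Slco1a1, both also on the male-biased list. Cyp7a1, the rate-limiting enzyme of the classical pathway, lay at 3.82, 3.39 and 4.19 at 6 weeks and 0.94, 0.62 and 1.52 at 12 weeks, 6.85-fold lower (-2.78 ± 0.56, adjusted p = 0.0153). Nr0b2 (SHP), its repressor, lay at 1.89, 1.64 and 1.35 at 6 weeks and 0.74, 0.64 and -0.45 at 12 weeks (-1.32 ± 0.30, adjusted p = 0.0238). Both were lower on every 12-week array. Nr1h4, the bile acid receptor FXR, fell by 0.48 (adjusted p = 0.00599), and the bile acid reductase Akr1d1 fell by 0.73 (adjusted p = 0.0103). The uptake carrier Slco1b2 was the other member that fell. Across the left-out arrays, 2, 2, 2, 4, 2 and 2 of the list rose and 3, 3, 3, 5, 3 and 5 fell. On the same slide neither passed, Cyp7a1 differing by -2.86 (adjusted p = 0.102) and Nr0b2 by -0.89 (adjusted p = 0.263). Without replicate 3 of 6 weeks or replicate 2 of 12 weeks the call of Cyp7a1 was lost (differences of -3.02 to -2.57), and that of Nr0b2 without replicate 1 or 2 of 6 weeks (differences of -1.53 to -0.94). Cyp7a1 and Nr0b2 were named after their values were seen.

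Cholesterol synthesis genes tended to positive values, and 5 of 26 rose (19.2%, against 4.62% of all genes) with none falling (median 0.38). Insig2, which holds SREBP precursors in the endoplasmic reticulum, lay at 3.38, 4.26 and 4.25 at 6 weeks and 5.43, 5.47 and 5.16 at 12 weeks (1.39 ± 0.22, adjusted p = 0.00518), and its call held in every fit with 1 array left out. Fdps, farnesyl diphosphate synthase, lay at 5.69, 4.20 and 4.79 at 6 weeks and 6.04, 6.44 and 6.18 at 12 weeks (1.33 ± 0.33, adjusted p = 0.0335). At 6 weeks replicate 1 was the highest array for Fdps, as it was for Cyp51 (0.83, -0.22 and 0.28 against 1.17, 1.51 and 1.39). Leaving out each array in turn, 7, 1, 1, 7, 1 and 1 of the list rose and 0, 1, 0, 0, 0 and 0 fell. Fdps, Cyp51 (1.06), Nsdhl (0.93) and Dhcr7 (0.81) lost their calls on the same slide (1.15, 0.87, 0.79 and 0.80). Hmgcs1, the HMG-CoA synthase, differed by 0.72 ± 0.22 without passing (adjusted p = 0.0680). Dhcr7 and Hmgcs1 were named after their values were seen.

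Genes of fatty acid synthesis were split, 4 of 24 rising and 4 falling (16.7% each, against 4.62% and 4.44% of all genes). Elovl5, a polyunsaturated fatty acid elongase, rose from 5.13, 5.07 and 5.34 to 5.85, 6.03 and 5.79 (0.71 ± 0.12, adjusted p = 0.00697). Scd1, the stearoyl-CoA desaturase, rose by 0.70 (adjusted p = 0.0233), while Thrsp, a lipogenic regulator, fell by 1.58 (adjusted p = 0.0401). The counts moved with single arrays: with 1 left out, 7, 1, 1, 5, 2 and 1 rose and 1, 2, 2, 2, 2 and 2 fell. On the same slide, where 0 rose, Elovl5 gave 0.67. Srebf1, the lipogenic transcription factor, was lower on all 12-week arrays (2.77, 1.75 and 1.57 against 0.99, 1.24 and 0.85) without passing (adjusted p = 0.0634). Thrsp and Srebf1 were named after their values were seen.

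Of 41 measured fat oxidation genes driven by PPAR-alpha, 1 rose (2.44%, against 4.62% of all genes) and none fell (median -0.035). With 1 array left out, 1, 1, 1, 1, 1 and 1 rose and 1, 0, 0, 1, 0 and 5 fell. The member that rose was Pdk4, an inhibitor of pyruvate oxidation, from -2.23, -1.30 and -1.17 to 0.082, -0.025 and 0.34 (1.70 ± 0.27, adjusted p = 0.00529), though it did not pass on the same slide (1.65, adjusted p = 0.0598). Of 28 genes of glucose output and insulin signalling, 2 rose (7.14%, against 4.62% of all genes) and 4 fell (14.3%, against 4.44%). Slc37a4, the glucose-6-phosphate translocase, fell by 0.98 (adjusted p = 0.00309), while a second probe of it gave -0.23 and did not pass. Slc2a2, the main hepatic glucose transporter, fell by 0.71 (adjusted p = 0.00769). Irs1, an insulin receptor substrate, rose by 0.86 (adjusted p = 0.00533). G6pc, the glucose-6-phosphatase, rose from 5.68, 6.17 and 6.45 to 7.45, 7.68 and 6.48 (1.10 ± 0.29, adjusted p = 0.0410), and lost its call on leaving out any array but replicate 3 of 12 weeks (differences of 0.86 to 1.47). Over the 6 fits that leave out 1 array, 1, 1, 1, 1, 1 and 2 of the list rose and 4, 4, 4, 4, 4 and 5 fell. In the lipid droplet list 2 of 21 rose (Plin2 by 0.86, Fitm1 by 0.85) and 1 fell (Cd36, a fatty acid uptake receptor, at -1.31). These shares were 9.52% and 4.76%, against 4.62% and 4.44% of all genes. On omitting single arrays, 1, 1, 0, 2, 1 and 0 rose and 1, 1, 0, 1, 1 and 1 fell. All 36 measured genes of oxidative phosphorylation missed the threshold (median -0.066); without replicate 1 or 3 of 12 weeks, 1 and 3 of them fell. Slc2a2 and G6pc were named after their values were seen.

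Genes of the pericentral zone, the hepatocytes around the central vein, showed 5 falls and no rise among 25 measured, with a median difference of -0.23. In RNA from whole liver, fewer cells of a type and less RNA per cell cannot be told apart. The falls were Gulo and 4 Cyp2c epoxygenase genes, Cyp2c37 (-0.80, adjusted p = 0.00266), Cyp2c54 (-0.70), Cyp2c50 (-0.62) and Cyp2c29 (-0.42). These 4 Cyp2c genes are also counted among the falls of the xenobiotic list. Other members did not pass and had either sign. Among them were Glul (-0.27), Cyp2e1 (-0.15), Cyp1a2 (-0.10), Lgr5 (-0.23), Rnf43 (-0.19), Axin2 (0.61), Tbx3 (0.36) and Oat (0.17), named after their values were seen. A change of the zone as a whole was not tested. Cyp2c37, for example, lay at 7.68, 7.67 and 7.86 at 6 weeks and 7.03, 6.72 and 7.06 at 12 weeks, and its call held on the same slide, where 2 of the list fell. Across the left-out arrays, 3, 3, 3, 4, 3 and 6 fell. In the periportal list 2 of 21 fell (9.52%, against 4.44% of all genes), Sds, a serine dehydratase (-0.70), and Apof (-0.31). With 1 array left out, 1, 1, 1, 3, 2 and 2 fell.

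Markers of the immature liver fell in part. Of 22 measured, 4 fell (18.2%, against 4.44% of all genes) and 2 rose (9.09%, against 4.62%), with a median of -0.23. With 1 array left out, 5, 3, 3, 4, 3 and 5 fell and 1, 1, 1, 2, 1 and 1 rose. Igf2bp3, an mRNA-binding protein of fetal tissue, lay at -2.37, -2.06 and -1.88 at 6 weeks and was not well above background on any 12-week array, at least 5.71-fold lower (adjusted p = 2.78e-06). Spink1, a trypsin inhibitor gene, lay at 0.18, -0.20 and 0.55 at 6 weeks and -1.58, -1.37 and -1.94 at 12 weeks (-1.81 ± 0.23, adjusted p = 0.00205). Cdkn1c, an imprinted cell cycle inhibitor, lay at 0.37, 0.34 and 0.44 at 6 weeks and -0.72, -0.67 and -0.34 at 12 weeks (-0.96 ± 0.14, adjusted p = 0.00311). These 3 falls held on the same slide and on leaving out any 1 array. Plagl1, an imprinted transcription factor gene, fell by 0.96 (adjusted p = 0.0257), and was lost on the same slide (-0.99) and without replicate 2 or 3 of 6 weeks or replicate 2 of 12 weeks (differences of -1.18 to -0.77). H19, an imprinted noncoding RNA, differed by -0.63 ± 0.18 on its brightest probe without passing (adjusted p = 0.0611), while its 4 other probes ran from -3.80 to 0.097 and 2 of them passed. Sox9, a progenitor and bile duct factor, rose from -2.98, -2.87 and -3.33 to -1.82, -1.18 and -1.73 (1.48 ± 0.28, adjusted p = 0.0108), with 1.24 on the same slide (adjusted p = 0.126). Plagl1 and H19 were named after their values were seen.

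A number of mitotic genes rose. In the cell cycle list 13 of 39 measured genes rose (33.3%, against 4.62% of all genes), 1 fell (2.56%, against 4.44%) and 25 did not pass. The median difference was 0.40. Ccnb1, cyclin B1, lay at -3.92, -3.90 and -3.76 at 6 weeks and -2.12, -1.87 and -1.60 at 12 weeks (2.0 ± 0.26, adjusted p = 0.00202). Prc1, a regulator of the dividing spindle, lay at -3.54, -3.57 and -2.92 at 6 weeks and -1.85, -1.55 and -0.64 at 12 weeks (2.0 ± 0.32, adjusted p = 0.00556). Cdc20, an activator of the anaphase-promoting complex, lay at -2.74, -2.54 and -1.65 at 6 weeks and -0.79, 0.27 and 0.76 at 12 weeks (2.39 ± 0.44, adjusted p = 0.00979). All 12-week arrays were above all 6-week arrays for these genes, and among the 12-week arrays replicate 1, on slide 1, was lowest and replicate 3 highest. Ccna2 (cyclin A2) rose by 1.97, Mki67 by 1.71, Aurka by 1.35 and Foxm1, a transcription factor of mitotic genes, by 0.90, all with the same order of replicate 1 below replicates 2 and 3.

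Genes of DNA replication in the same list were mixed. Mcm7 rose, Mcm2 differed by 0.25 ± 0.15 and Pcna by 0.0096 ± 0.10 without passing, and Tk1, thymidine kinase, was the member that fell (-0.59 ± 0.16, adjusted p = 0.0463). Ccnd1, cyclin D1, overlapped between ages (0.17 ± 0.30). On the same slide 1 member rose, Ccnb1 (1.74, adjusted p = 0.0404), and the median was 0.17, whereas without that array 17 rose. Prc1 gave 1.49 and Cdc20 1.53 there (adjusted p = 0.0857 and 0.142). With slide as a random effect 7 rose, and with 1 array left out 9, 8, 12, 17, 9 and 11 rose. Markers of red cell precursors, which divide, were mixed (median 0.016). Of 13 measured erythroid genes, Alas2, the erythroid first enzyme of heme synthesis, rose (1.04 ± 0.13, adjusted p = 0.00189) and 2 fell. Over all genes, 4.62% rose and 4.44% fell. With 1 array left out, 0, 0, 1, 2, 0 and 2 erythroid genes fell. The summed erythroid level (log2 of the summed signal, on the same scale) was 9.58 to 9.77 at 6 weeks and 9.78 to 9.97 at 12 weeks. Their part in the result was not tested. Cdc20, Mki67, Foxm1, Mcm2, Pcna, Tk1 and Ccnd1 were named after their values were seen.

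MHC class II genes, which antigen-presenting cells use to display peptides, had higher values at 12 weeks in part. In the list 5 of 14 measured genes rose (35.7%, against 4.62% of all genes) and none fell, with a median difference of 0.64. H2-Aa lay at -0.71, -0.60 and -0.76 at 6 weeks and 0.90, 0.16 and 1.44 at 12 weeks (1.52 ± 0.35, adjusted p = 0.0268). H2-Ab1 lay at 3.87, 3.86 and 3.82 at 6 weeks and 5.21, 4.64 and 5.93 at 12 weeks (1.41 ± 0.35, adjusted p = 0.0326), and Cd74, the invariant chain, at 2.78, 2.80 and 2.68 at 6 weeks and 4.07, 3.42 and 4.48 at 12 weeks (1.24 ± 0.31, adjusted p = 0.0346). The 6-week arrays were almost level and the 12-week arrays spread widely, replicate 2 lowest and replicate 3 highest. H2-Eb1 (1.43) and H2-DMb1 (0.99) had the same order. Calls of all 5 were lost without any one 6-week array and without replicate 3 of 12 weeks, where the count was 0; it was 3 without replicate 1 and 5 without replicate 2 of 12 weeks. With the slide as a block no member passed. The same-slide differences of H2-Aa and H2-Ab1 were 1.59 and 1.36 (adjusted p = 0.138 and 0.189). Ciita, the master regulator of these genes, lay at -3.88, -0.068 and -4.03 at 6 weeks and -4.21, -3.46 and -3.05 at 12 weeks, replicate 2 of 6 weeks standing far above the rest (adjusted p = 0.553). H2-Eb1 and Ciita were named after their values were seen.

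**Figure D4:**
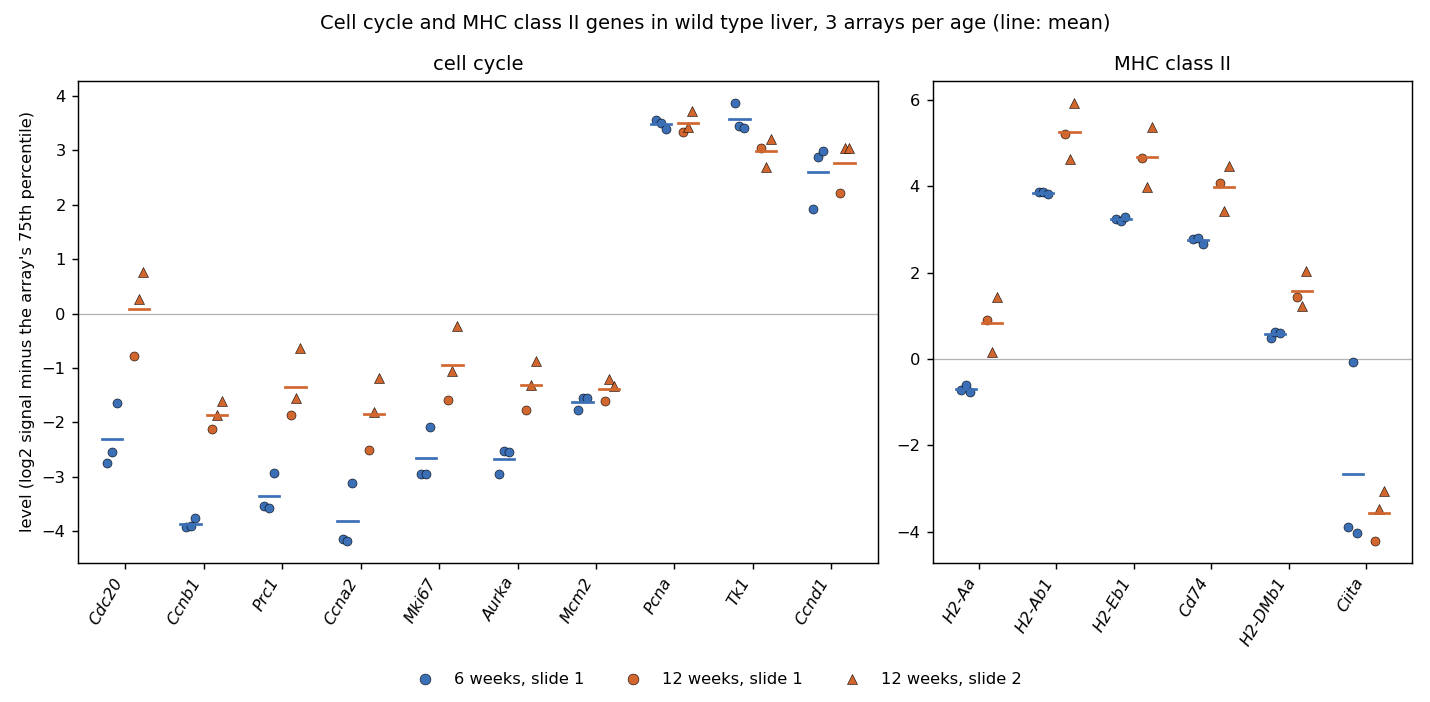
Levels of 10 cell cycle genes and 6 MHC class II genes on each wild type array, as log2 signal minus the array's 75th percentile; points are arrays, circles slide 1 and triangles slide 2, and lines are the means of 3 arrays. Mitotic genes such as Ccnb1 and Cdc20 are higher on all 12-week arrays with the slide 1 array lowest, Pcna and Ccnd1 overlap, and the class II genes are level at 6 weeks and spread at 12 weeks.

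Markers of immune cells were compared beside these genes. In the Kupffer cell list 1 of 25 measured genes rose (4.0%, against 4.62% of all genes) and none fell. The summed level of the list was 7.57 to 7.77 at 6 weeks and 7.90 to 8.30 at 12 weeks, without overlap. Taken singly, 26.0% of all genes had no overlap. The member that rose was Cd14, the lipopolysaccharide co-receptor (0.88 ± 0.14, adjusted p = 0.00527), a call lost on the same slide (0.80, adjusted p = 0.0650), while Clec4f (0.20), Adgre1 (0.43), Vsig4 (0.39) and Cd68 (0.20) did not pass. In the B and plasma cell list 2 of 13 rose (15.4%, against 4.62% of all genes). Blnk, a B cell adaptor, rose from -0.52, -0.71 and -0.79 to 0.97, 1.01 and 0.017 (1.34 ± 0.25, adjusted p = 0.0113). Jchain, which joins IgA and IgM, rose from -2.62, -2.06 and -2.40 to -0.61, -0.56 and -0.37 (1.85 ± 0.20, adjusted p = 6.61e-04). Both held their calls on the same slide and on leaving out any 1 array, yet the B cell markers Cd79a (0.22) and Ms4a1 (0.61) did not pass, and the summed level of the list overlapped (7.18 to 7.52 against 6.79 to 7.37). The part of these cell types in the class II result was not tested.

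Il1b, S100a8 and S100a9 rose. Il1b, the pro-inflammatory cytokine, lay at -2.79, -2.64 and -2.32 at 6 weeks and 0.19, -0.23 and -0.41 at 12 weeks, a 5.4-fold rise (2.43 ± 0.31, adjusted p = 0.00200) that held on the same slide (2.78). S100a9, a calcium-binding protein of neutrophils, rose from -0.28, -0.065 and -0.21 to 0.51, 0.71 and 0.61 (0.79 ± 0.087, adjusted p = 7.27e-04), and S100a8 by 0.67 (adjusted p = 0.00569). These were the 3 of 12 measured neutrophil and monocyte genes that rose (25.0%, against 4.62% of all genes), and none fell. The summed level of the list overlapped (6.30 to 6.39 and 6.20 to 6.37). Csf3r weighs most in that sum, with log2 signals of 14.5 to 14.8 before scaling, against 8.43 to 9.33 for S100a9. In the list of NK and T cell genes 2 of 21 rose (9.52%, against 4.62% of all genes), Ccl5 by 0.73 and Ifng. Ifng was not well above background on any 6-week array and at least 1.20-fold higher at 12 weeks (adjusted p = 0.0325). With 1 array left out, 1, 0, 0, 3, 2 and 1 of the list rose. Cd3d (0.60) and Cd3e (-0.04) did not pass, and Ncr1 was well above background on 1 of 6 arrays.

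Interferon targets passed at shares near that of all genes (9.06%). Of 29 measured interferon-gamma genes, 1 rose (Ifng) and 1 fell (Gbp7, -0.56). Of 27 type I interferon genes 2 fell, Ifit1 (-0.80) and Ddx58 (-0.42), and none rose. Leaving out each array in turn, 5, 0, 0, 2, 0 and 3 type I genes fell, and 1, 0, 0, 2, 1 and 1 interferon-gamma genes rose and 0, 0, 0, 1, 0 and 1 fell. Among 17 genes of interleukin-18 and the inflammasome, Il1b was the only one to pass. In the complement list 11.5% of members rose and 3.85% fell, against 4.62% and 4.44% of all genes. The complement list gave 3 rises of 26, the terminal components C6, C8a and C9 (0.93, adjusted p = 0.00436), and 1 fall, the mannose-binding lectin Mbl2 (-0.60, adjusted p = 0.00452), and all 4 held on the same slide and on leaving out any 1 array.

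Among 31 measured acute phase genes 4 fell (12.9%, against 4.44% of all genes) and 1, Stat3, rose (3.23%, against 4.62%). Among 22 iron genes 2 fell (9.09%) and 1 rose (4.55%). Over the 6 fits that leave out 1 array, 0, 0, 0, 1, 2 and 1 acute phase genes rose and 3, 3, 4, 5, 4 and 4 fell, and 0, 0, 0, 1, 0 and 0 iron genes rose and 1, 1, 1, 2, 1 and 2 fell. Hamp2, a hepcidin-family gene, lay at 7.25, 6.30 and 6.45 at 6 weeks and 3.19, 3.28 and 4.35 at 12 weeks, an 8.34-fold fall (-3.06 ± 0.37, adjusted p = 0.00130), while Hamp, hepcidin itself, overlapped between ages (-0.071 ± 0.37, adjusted p = 0.924). Mt1, a metallothionein that binds zinc and copper and responds to glucocorticoids, lay at 8.40, 8.52 and 8.14 at 6 weeks and 6.49, 5.87 and 6.74 at 12 weeks (-1.99 ± 0.38, adjusted p = 0.0116), and its neighbour Mt2 fell by 2.12 (adjusted p = 0.0282). On the same slide they gave -1.86 and -1.96 and did not pass. Serpina3n fell by 0.78 (adjusted p = 0.0111). Among 18 glucocorticoid-responsive genes 4 fell (Mt1, Mt2, Sult1a1 at -0.79 and Fkbp5 at -0.78) and 1 rose (Cdkn1a at 1.21). These shares were 22.2% and 5.56%, against 4.44% and 4.62% of all genes. On omitting single arrays, 0, 0, 1, 1, 0 and 0 rose and 2, 2, 3, 3, 2 and 4 fell. Hamp and Fkbp5 were named after their values were seen.

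In the immediate early, heat shock, unfolded protein response and p53 lists, the share that rose was above that of all genes (4.62%). The counts were small, and with the slide as a fixed block 1, 1, 0 and 0 members of these lists rose. Nr4a1, an orphan nuclear receptor induced within minutes of a stimulus, lay at -0.74, -0.95 and -0.63 at 6 weeks and 2.62, 2.16 and 2.27 at 12 weeks, an 8.71-fold rise (3.12 ± 0.30, adjusted p = 3.71e-04) that held on the same slide (3.39). In its list of 20, Fosl2 (0.87), Atf3 (1.02) and Jund (0.46) also rose and Zfp36, an mRNA-decay factor, fell (-0.85); with 1 array left out, 2, 2, 5, 5, 4 and 2 rose and 0, 1, 0, 1, 0 and 1 fell. Hspb1, the small heat shock protein HSP27, rose from 3.97, 4.21 and 3.68 to 5.51, 5.79 and 5.38 (1.61 ± 0.17, adjusted p = 6.31e-04), the member of the heat shock list (3 of 22 rose) that held its call throughout. Across the left-out arrays, 1, 1, 2, 3, 1 and 2 of that list rose. In the unfolded protein response list 4 of 31 rose (Calr by 0.58, Ero1b by 0.73, Pdia3 by 0.33 and Atf3), and with 1 array left out 0, 0, 1, 3, 1 and 7 rose. Of 21 p53 targets 3 rose, Cdkn1a, Pmaip1 (0.86) and Trp53inp1 (0.81), and 2 fell, Aen (-0.46) and Ccng1 (-0.32), and with 1 array left out 0, 0, 2, 2, 0 and 1 rose and 2, 0, 0, 2, 1 and 3 fell. Jund and Trp53inp1 were named after their values were seen.

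Genes of the matrix, endothelial and bile duct lists passed at shares near that of all genes (9.06%), namely 2 of 29, 2 of 25 and 1 of 11. In the stellate and matrix list 21 of 29 measured genes had negative differences (median -0.22). The summed level was 9.19 to 9.29 at 6 weeks and 8.75 to 9.18 at 12 weeks, without overlap. Taken singly, 26.0% of all genes had no overlap. Col5a3, a collagen V chain, rose by 1.33 (adjusted p = 0.00518), though not on the same slide (1.07, adjusted p = 0.0781), and Sparc, a matricellular protein, fell by 0.72 (adjusted p = 0.0408); Sparc was lost in 5 of the 6 fits with 1 array left out, all but that without replicate 3 of 12 weeks, and differed by -0.88 to -0.62 over the 6. Among 25 sinusoidal endothelial genes Lyve1 (-1.08) and Gpr182 (-0.54) fell, and with 1 array left out 0, 0, 0, 2, 0 and 0 rose and 1, 0, 0, 3, 0 and 2 fell. Stab2 (-0.039) and Clec4g (0.011) did not pass. Sox9 was the only 1 of 11 bile duct genes to pass, with Krt19 (-0.10) and Krt7 (0.52) not passing. In the hepatocyte list Apoa1 rose by 0.33 and Nr1h4 and Asgr1 (-0.29) fell; with 1 array left out, 0, 0, 1, 0, 0 and 1 rose and 1, 1, 1, 3, 1 and 2 fell.

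Markers of neighbouring tissues were mixed in level and mostly did not pass. None of 9 measured pancreas genes passed. Of these, 6 were well above background on all 6 arrays, among them Amy2a5, Ctrb1 and Clps, whereas Pnlip was so on none and Prss2 and Cpa1 on 1 and 0, and the summed pancreas level was 3.72 to 3.95 at 6 weeks and 3.14 to 3.69 at 12 weeks. Of 9 measured adipocyte genes Adrb3 rose (0.69), losing its call without replicate 3 of 6 weeks. That is 11.1% of the list, against 4.62% of all genes. In that list 6 genes, Car3 and Fabp4 among them, were well above background on all 6 arrays and Plin1 and Lep on 0. The summed level overlapped (8.55 to 8.76 and 8.66 to 9.02). Car3 weighs most in that sum, with log2 signals of 17.2 to 17.6 before scaling, against 10.8 to 11.4 for Fabp4. None of 7 measured muscle genes passed, with Ckm well above background on 0 of 6 arrays.

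Beside the genes for which this is stated above, several named genes lost their call on the same slide. Among those that rose, these were Adrb3, Apoa1, Atf3, Aurka, Calr, Ccl5, Ccna2, Cdkn1a, Cyp2d9, Ero1b, Fitm1, Fosl2, Foxm1, G6pc, Ifng, Irs1, Jund, Mki67, Mup20, Pdia3, Plin2, Pmaip1, Scd1, Stat3, Trp53inp1 and Ugt2b38. Among those that fell, they were Akr1d1, Apof, Asgr1, Ccng1, Cd36, Cyp2c29, Cyp2c50, Cyp2c54, Ddx58, Fkbp5, Gbp7, Gpr182, Ifit1, Lyve1, Sds, Serpina3n, Sparc, Sult1a1, Thrsp, Tk1 and Zfp36.

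Several of the largest changes belonged to no list. Nat8, an N-acetyltransferase gene of the liver and kidney, lay at 0.91, 0.85 and 0.28 at 6 weeks and 4.92, 4.58 and 4.59 at 12 weeks, 16.2-fold higher (4.02 ± 0.19, adjusted p = 5.63e-06). Erdr1, a gene of the pseudoautosomal region, lay at 4.92, 5.34 and 3.99 at 6 weeks and -0.77, -1.33 and -1.19 at 12 weeks, 57.6-fold lower (-5.85 ± 0.30, adjusted p = 7.25e-06). Cyp2a22, a cytochrome P450 gene near Cyp2a4, lay at -0.90, -1.07 and -0.37 at 6 weeks and -4.04, -4.65 and -3.65 at 12 weeks (-3.33 ± 0.38, adjusted p = 8.81e-04). For each of these the 6-week and 12-week arrays were far apart, and each held its call on the same slide and on leaving out any 1 array.

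Other large rises started from the background. Irx1, a homeobox gene, stayed below the detection mark on every 6-week array, lay at -1.80, -1.86 and -1.07 at 12 weeks and was at least 6.14-fold higher (adjusted p = 1.34e-04). Lad1, a basement membrane anchor gene, was at least 4.11-fold higher (adjusted p = 6.31e-04). Lrp2 (megalin), an endocytic receptor, was at least 2.68-fold and Map3k9, a kinase gene, at least 2.20-fold higher (adjusted p = 2.37e-04 and 2.84e-04). All 4 were below that mark on every 6-week array and above it on every 12-week array. Fewer spots met the mark on each 6-week array than on any 12-week array. Wfdc12, a protease inhibitor gene, and Sstr2, a somatostatin receptor, were at least 5.35-fold and 1.89-fold higher (adjusted p = 0.0453 and 0.0369), and both lost their calls on the same slide (2.31 and 2.38) and without any one 6-week array. Among the falls, Hoxd11, a homeobox gene, stayed below the detection mark on every 12-week array and was at least 6.15-fold lower (adjusted p = 9.79e-04), and Sult2a6, a sulfotransferase, at least 4.98-fold lower (adjusted p = 0.0109), with 1 array of 6 weeks, replicate 3, well above the other two (-3.30, -3.74 and 0.15), and with its call lost on the same slide (-4.53).

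The age difference of the wild type was then set against that of the knockout, which shares no array with it. In the knockout 880 genes rose (3.98%) and 648 fell (2.93%). A test of the difference between the age differences passed for 1053 genes upward (4.76%) and 1234 downward (5.58%), together 10.3%. Of the genes called at both genotypes, 74 rose in both and 33 fell in both, a share of 5.34% of wild type calls and 7.0% of knockout calls, while 294 had opposite directions (14.7% and 19.2%). The difference between genotypes passed for 1122 of the 2005 wild type calls. All knockout arrays and 2 of the 12-week wild type arrays lay on slide 2, and the 6-week wild type arrays all on slide 1. For the 6-week groups genotype and slide therefore cannot be told apart.

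Many male- and female-biased genes differed between the genotypes in their age difference. Of the 29 male-biased genes none rose and 6 fell in the knockout (median -0.28), where 2.93% of all genes fell, and the difference between genotypes was higher for 17 and lower for none. Of the 32 female-biased genes 3 rose and none fell in the knockout (median 0.29), where 3.98% of all genes rose. The difference between genotypes was lower for 21 of them and higher for none. Over all genes that difference was higher for 4.76% and lower for 5.58%. For Elovl3 the knockout lay at 6.91, 7.10 and 7.16 and 5.14, 4.34 and 4.42, a fall where the wild type rose, and the difference was 7.12 ± 0.48 (adjusted p = 5.76e-05). C6 lay at 4.70, 4.46 and 4.75 and 4.78, 4.41 and 4.82, at the level of the 12-week wild type at both ages. Cyp2b13 was well above background on none of the 6 knockout arrays, so its age difference there has no measured size; the difference between genotypes passed (adjusted p = 0.00128).

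Several clock genes moved in opposite directions in the wild type and the knockout. In the knockout, 8 of 19 core genes rose and 4 fell, and 7 of 19 output genes rose and 4 fell. Of all genes there, 3.98% rose and 2.93% fell. Dbp lay at 0.25, 0.14 and -0.094 in the knockout at 6 weeks and 6.65, 6.87 and 6.86 at 12 weeks, so that it rose by 6.70 there and fell by 1.36 in the wild type (difference between genotypes -8.06 ± 0.36, adjusted p = 5.81e-06). Ciart was not well above background in the 6-week knockout and lay at -0.49, -0.16 and -0.24 at 12 weeks, at least 17.7-fold higher there (adjusted p = 1.68e-04), while it fell in the wild type; its difference between genotypes passed (adjusted p = 4.06e-05). Usp2 differed by -7.14 ± 0.41 (adjusted p = 3.89e-05) and Arntl by 6.31 ± 0.53 (adjusted p = 1.89e-04). Time of day is unlabelled in the knockout groups as well.

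A few genes outside these lists were among the largest differences between genotypes. Tubb2a, a tubulin gene, lay at 3.14, 3.33 and 3.27 at 6 weeks and 5.72, 6.25 and 5.31 at 12 weeks in the wild type and at 7.39, 6.83 and 6.61 and 5.26, 4.28 and 4.45 in the knockout at 6 and 12 weeks (difference 4.80 ± 0.42, adjusted p = 2.61e-04). Cdkn1a, the cell cycle inhibitor p21, rose by 1.21 in the wild type and fell by 4.10 in the knockout (difference 5.31 ± 0.40, adjusted p = 9.99e-05). Igf2bp3 fell in both, at least 5.71-fold in the wild type and at least 1.5-fold in the knockout (adjusted p = 7.46e-05). Irx1 rose in both, at least 6.14-fold in the wild type and by 2.76 in the knockout (adjusted p = 9.43e-04). For cell cycle genes 11 of 39 differences between genotypes were higher and 2 lower, against 4.76% and 5.58% of all genes. For the MHC class II genes none of 14 passed in either direction.

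**Figure D5:**
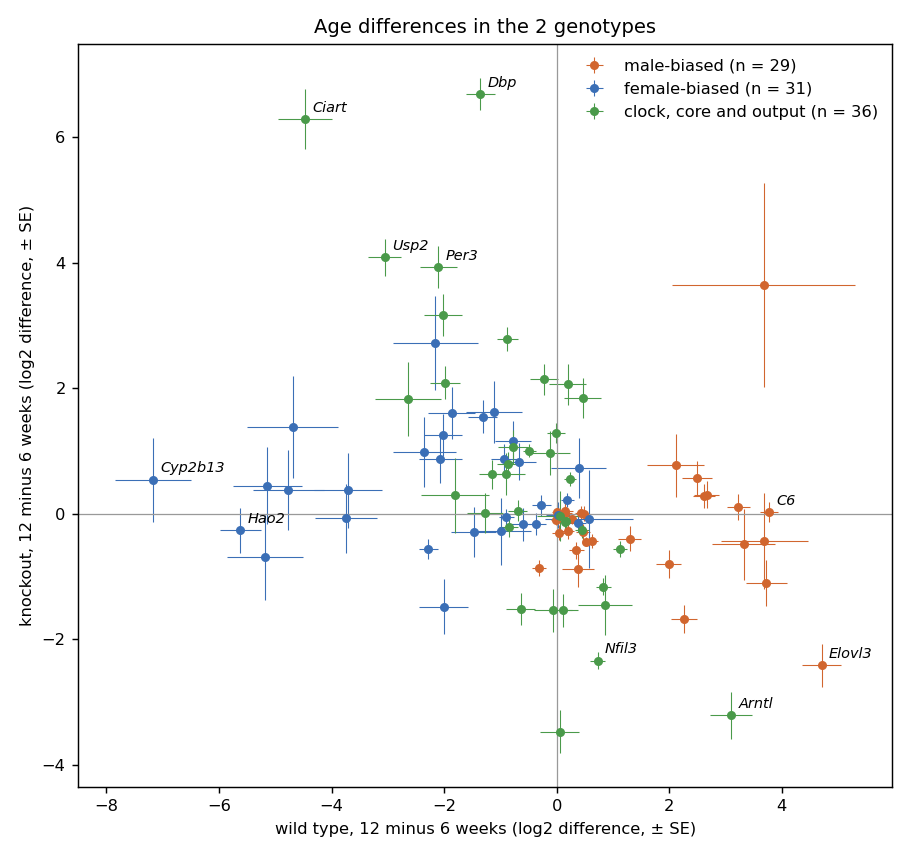
Age difference in the knockout (vertical axis, log2, 12 minus 6 weeks) against that in wild type (horizontal axis) for 29 male-biased, 31 female-biased and 36 clock genes; points are genes, bars are standard errors of the fit, and the 2 axes share no array. Values of genes below background in a group are as measured. Female-biased genes such as Cyp2b13 and Hao2 and the male-biased C6 lie far out on the horizontal axis and near 0 on the vertical one, Elovl3 differs in both, and the clock genes Ciart, Dbp, Usp2, Per3, Nfil3 and Arntl have opposite signs on the axes.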

How the data were processed

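Total RNA of 12 BALB/c livers was labelled with Cy3 and hybridised to 1-colour Agilent mouse arrays, per the labels. The authors deposited scanner files whose processed signal is an intensity, background-subtracted by Agilent Feature Extraction 10.7.3.1, per the file headers. Positions are on mm9, per the file headers. The deposited table of processed intensity values served as an alternative.

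Control spots and outlier spots were left out. The log2 of each intensity minus its array's 75th percentile was taken, and spots of a probe were averaged. A probe was tested if the scanner software called it well above background on each of the 3 arrays of 1 or more groups (29807 probes, 53.5%), and the brightest probe stood for a gene (22125 genes, 5435 of them with more than 1 tested probe). limma 3.58.1 (R 4.3.3; Python 3.11.15) was fitted over 12 arrays with 4 group means (8 residual and 2.23 prior degrees of freedom), with Benjamini-Hochberg adjustment. The fit was tested on simulated data drawn without a slide effect, which cannot show how the slide bears on the calls. Where no array of a group had the probe well above background, the fold is "at least" that against the higher of the lowest signal well above background and its own. Nothing in the labels says whether replicates were processed on separate days, and p-values measure only the spread between these arrays.

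The genes and 42 gene lists were chosen with earlier results of these data known. Named were the 15 largest rises and falls whose groups did not overlap, all measured sex-biased, sex-chromosome and clock genes, up to 4 passing members of each other list by p, the 5 largest differences between genotypes each way, and Il18; other names were chosen after their values were seen. Some members are not reported here by name, but counts over lists include them. Alternatives were normexp with an offset of 50, quantile and median scaling, no filter, a filter on wild type arrays, the median over probes, the deposited table, slide and replicate blocks, an intensity trend, wild type arrays alone, slide 1 alone, and leaving out each array.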

Additional observations from a re-analysis of the deposited data

Results flagged for a closer look

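The age difference of the wild type was tested against that of the knockout as an interaction term in the limma model, with Benjamini-Hochberg adjustment over 22125 genes. It passed upward for 1053 genes and downward for 1234. Values below are the log2 age difference in the wild type minus that in the knockout, for 72 of the 118 genes described above that were set against the knockout. All 6-week wild type arrays shared slide 1 and every knockout array was on slide 2, so genotype and slide cannot be told apart for the 6-week groups.

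Among male-biased genes the difference was positive for all 17 that passed, namely Elovl3 (7.12), Nat8f5 (4.83), Scara5 (4.13), Cspg5 (3.94), Serpina12 (3.81), C6 (3.74), Cyp7b1 (3.13), Hsd3b5 (2.80), Cyp4a12a (2.36), Cyp4a12b (2.33), Susd4 (1.92), Gstp1 (1.69), Slco1a1 (1.05), C8a (0.97), C8b (0.93), Ugt2b1 (0.76) and Ugt2b38 (0.36). Among female-biased genes it was negative for all 21 that passed, among them Cyp2b13 (-7.71), Slc22a29 (-6.08), Cyp2b9 (-5.59), Hao2 (-5.36), Slc22a27 (-5.15), Acot3 (-4.88), Slc22a26 (-4.49), Cyp2b10 (-4.08), Sult3a1 (-3.67), Sult1e1 (-3.47), Atp6v0d2 (-3.35), Tox (-3.28), Fmo2 (-2.94), Cyp2a4 (-2.86), Cyp4a14 (-2.74), Cyp4a10 (-1.94), Trim24 (-1.82), Akr1b7 (-1.72), Acot4 (-1.50) and Cyp2c39 (-0.85).

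In the core clock list the difference was positive for Arntl (6.31), Npas2 (3.52), Clock (1.68) and Rora (0.70), and negative for Ciart (-10.76), Per3 (-6.04), Per2 (-4.08), Nr1d2 (-2.37), Nr1d1 (-1.87) and Cry2 (-1.30). In the clock output list it was positive for Nfil3 (3.07), Leo1 (1.99) and Lonrf3 (1.65), and negative for Dbp (-8.06), Usp2 (-7.14), Wee1 (-5.20), Rgs16 (-4.47), Tef (-3.67), Por (-1.84), Coq10b (-1.78), Nampt (-1.65) and Hlf (-1.49). Genes outside these lists with a positive difference were Cdkn1a (5.31), Tubb2a (4.80), Nr4a1 (3.20), Map3k9 (3.11), Nat8 (2.94), Lrp2 (2.87), Lad1 (1.96) and Kdm6a (0.57), and those with a negative one were Erdr1 (-6.87), Sult2a6 (-4.87), Cyp2a22 (-3.40), Hoxd11 (-3.19) and Igf2bp3 (-1.93).

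For 16 of these genes at least 1 of the 4 groups had no array with the probe well above background, so that the value is as measured and has no exact size. They were Ciart, Cyp2b13, Cyp2b9, Hao2, Hoxd11, Igf2bp3, Lad1, Lrp2, Map3k9, Npas2, Per3, Scara5, Serpina12, Sult1e1, Sult2a6 and Sult3a1.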

How the results depend on the processing

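The counts of genes that rose and fell (1023 and 982) were 586 and 646 with no filter on dim probes, 343 and 385 with the slide as a fixed block, 524 and 558 with slide as a random effect, 246 and 149 with the 6 wild type arrays alone, and 4 and 5 within slide 1; scaling to each array's median gave 508 that fell. Counts of the difference between genotypes (1053 higher and 1234 lower) were 683 and 700 with median scaling and 634 and 701 with no filter, and 638 were higher with the slide as a fixed block. With 1 array left out, 513 to 1546 genes rose and 473 to 2267 fell, and 743 to 1517 differences between genotypes were higher and 818 to 1801 lower. All 2005 calls kept their sign in each of these fits except with no filter, where 2003 of 2005 did. With the median over probes, 1988 of 2005 did.

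For the 6 wild type arrays alone and within slide 1, 9 and 2 male-biased genes rose and 8 and 0 female-biased genes fell, 2 and 0 clock output genes fell, and 1 and 0 cell cycle genes rose. Clock output falls numbered 6 with the slide as a fixed block; cell cycle rises were 1 with the fixed and 7 with the random block; class II rises were 0 with both blocks, with no filter, with the wild type arrays alone and within slide 1. With 1 array left out the ranges were 13 to 17 (male-biased), 13 to 23 (female-biased), 5 to 10 (clock output), 8 to 17 (cell cycle) and 0 to 5 (class II). Fbxl21, which did not pass, passed as a fall without replicate 3 of 12 weeks, with values of -0.56 to 0.45 over the left-out arrays. The causes were not tested.

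Equal replicate numbers did not pair the wild type arrays: the deviations of same-numbered arrays correlated at 0.18, -0.04 and 0.11. With the replicate number as a block 880 genes rose and 795 fell. With the block and the wild type arrays alone, an alternative chosen after seeing the data, 105 rose and 58 fell, with 9 male-biased rises, 9 female-biased falls, 1 clock output fall, 6 cell cycle rises and 0 class II rises.

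Of the 257 genes named by rule or afterwards, 175 passed. Calls were lost by 171 within slide 1, 111 with the wild type arrays alone, 133 with those and the replicate block, 24 with the replicate block, 100 with the slide as a fixed block, 64 with no filter, 59 with the random block and 36 with median scaling, and by 4 to 6 with normexp, quantile scaling or the median over probes. Leaving out 1 array cost 21 to 68 calls. Probes near the background have only a bound, and 3 arrays per group limit the precision.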
